A study of Eohaustorius estuarius with 16 samples.

Results

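Contig_4158 is a transcript of the burrowing estuarine amphipod Eohaustorius estuarius, and the 61 transcripts described here are those whose levels went up and down with it from sample to sample. Its probe is CUST_4640_PI425439380 on a custom Agilent array. The members are that probe and the 60 probes with the highest Pearson r to it, out of 7034 probes that were well above background on at least 8 of 16 arrays, and out of 8507 probes in all. The correlation was taken over the 16 arrays after the mean of each group had been subtracted from each probe, so that a difference between the groups could not raise it. The members were thus chosen by their deviations from the group means in these same arrays. Probes CUST_4090 to CUST_4140 of the PI425439380 design were left out.

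The RNA was of whole bodies. A cyfluthrin group of 8 samples had lived 10 days in sediment given a nominal 1.6 micrograms of cyfluthrin per kilogram, and a control group of 8 samples had lived as long in sediment given the solvent. All samples were labelled with Cy3 and hybridised by the laboratory labelled B of a comparison between laboratories. Sex, age, moult stage, the number of animals in a sample and the number of aquaria are not stated in the labels. The p-values below therefore set a difference against the spread between these samples, which may be technical in part.

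Cyfluthrin is a pyrethroid, a synthetic insecticide that keeps the sodium channels of nerves open and so disturbs the nerves and muscles of insects and crustaceans. In RNA of whole animals, the level of a transcript depends on how much of it each cell holds and on how many of the cells make it, and fewer cells of a type cannot be told apart from less RNA per cell. Transcripts of the same organ, or of the same stage of a moult or reproductive cycle, can for this reason vary together between samples. The files used here name transcripts by contig of an assembly only, with no gene name and no probe sequence. No function is therefore given for any member, and whether several contigs are pieces of one transcript was not tested.

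Levels are log2 of the processed intensity minus the 75th percentile of the array, so that 0 is the 75th percentile, and they compare samples within a probe, not one probe with another. Contig_4158 stood at 3.69, 4.16, 3.82, 3.98, 3.96, 2.59, 1.95 and 2.21 in cyfluthrin samples 1 to 8, and at 0.66, 0.65, 1.15, -0.07, 0.87, 1.44, -0.59 and 0.53 in control samples 1 to 8. Every exposed sample lay above every control. Within the exposed group, samples 1 to 5 were high and close together and samples 6, 7 and 8 were lower. Among controls, sample 6 was the highest and sample 7 the lowest. Before scaling, the processed intensity of contig_4158 lay between 2496 and 17566 in exposed samples and between 366 and 1596 in controls.

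The means were 3.29 ± 0.89 in exposed samples and 0.58 ± 0.65 in controls (SD, n = 8 each). Contig_4158 rose by 2.71 ± 0.37 on the log2 scale (SE; 95% interval 1.94 to 3.49), which is 6.56-fold (limma adjusted p = 0.000722 over 7245 tested probes). The probe had 2 spots on each array, which differed by 0.015 to 0.22 log2 units. The spread between samples of a group was thus larger than the spread between spots. The probe was well above background on all 16 arrays, with no saturated spot.

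How closely the other members followed contig_4158 differed widely. Over the 16 deviations from the group means, r was 0.848 to 0.983 for the 10 closest partners and 0.685 to 0.808 for the other 50. These values chose the members and are given without a test. Of the 60 partners, 8 had an r over 0.9, 11 an r over 0.8 and 44 an r over 0.7. The limit of 60 fell in a dense stretch of the ranking, since 234 of the probes that passed the filter had an r over 0.6. Just inside it were contig_5287 with an r of 0.688, contig_2916 with 0.688 and contig_8278 with 0.685. Just outside were contig_4420 with 0.685, contig_4059 with 0.684 and contig_5276 with 0.681. The membership of the last of the 60 is therefore a matter of the limit.

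The 10 closest partners, in order of r, were contig_4071, contig_2699, contig_6580, contig_7311, contig_6676, contig_7422, contig_5795, contig_4088, contig_4390 and contig_8441. They also followed one another: with contig_4158 they form 55 pairs, with a median r of 0.911 and a lowest r of 0.746. The 1225 pairs among the other 50 had a median r of 0.670 and a lowest of 0.129. Per log2 unit of contig_4158, the closest partners moved by 0.81 to 1.12 log2 units (median 0.89) and the other 50 by 0.25 to 0.84 (median 0.46). Such a slope falls with a lower r, which ranked the members, so it does not measure how much a probe varied. The SD among exposed samples was 0.70 to 1.08 in the 11 probes (median 0.85). It was 0.31 to 1.25 in the other 50 (median 0.60), so the ranges overlapped.

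**Figure D1:**
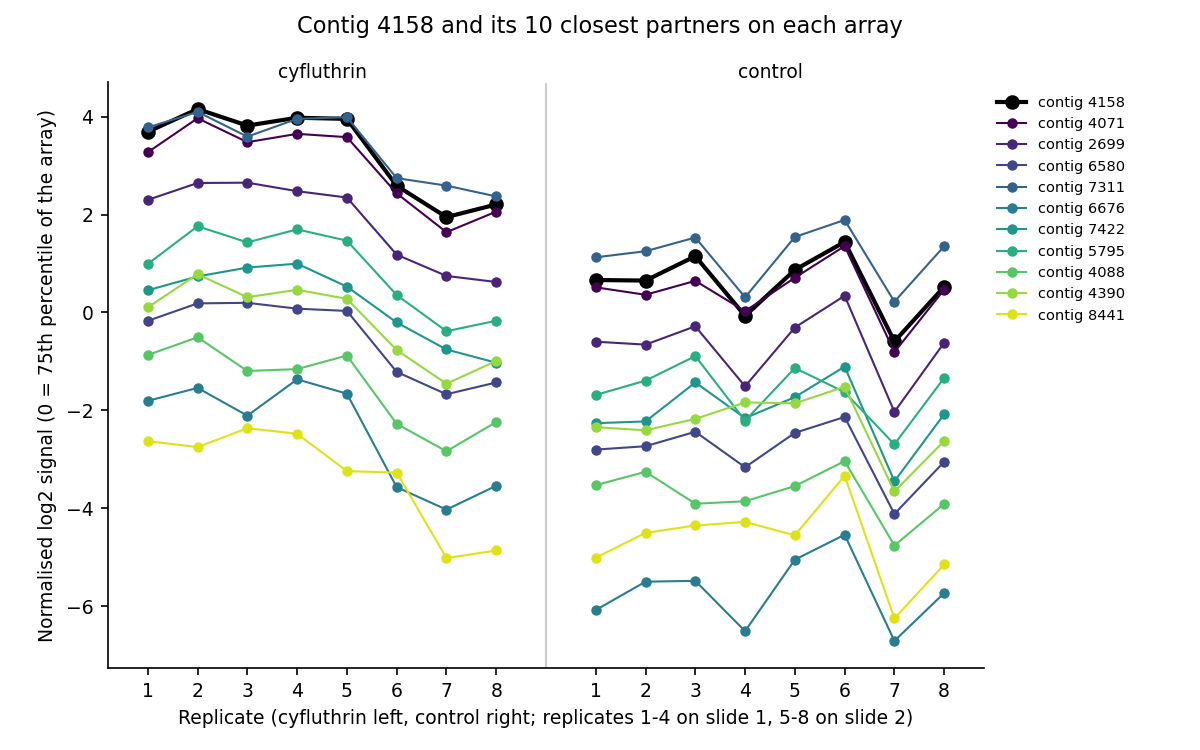
Normalised log2 signal (vertical axis) of contig_4158 in black and of its 10 closest partners on each of the 16 arrays, cyfluthrin samples on the left and controls on the right. The lines run nearly parallel: cyfluthrin samples 6, 7 and 8 and control 7 are low in nearly all of them, and 10 of the 11 probes lie higher in every cyfluthrin sample than in any control.

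The co-variation was seen in each group taken alone for the closest partners, and mainly among exposed samples for the rest. Their r to contig_4158 was 0.889 to 0.994 over the 8 exposed samples and 0.728 to 0.989 over the 8 controls. For the other 50, the median r was 0.825 over the exposed samples, against 0.498 over the controls, with a lowest value of 0.156 there. Ranks gave much the same picture as values for the closest partners, with a Spearman rho of 0.794 to 0.976 over the 16 deviations. For the other 50 it was 0.559 to 0.791. All these values come from the same deviations that chose the members, so they describe the choice and do not test it. Contig_4158 spread more among exposed samples (SD 0.89) than among controls (SD 0.65), so exposed samples weighed more in the choice.

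Which samples carried the shared pattern was plain from the mean deviation of the members on each array. Contig_4158 and its 10 closest partners averaged 0.40, 0.80, 0.55, 0.69, 0.52, -0.61, -1.27 and -1.07 log2 units from the group mean in cyfluthrin samples 1 to 8, and -0.04, 0.10, 0.35, -0.34, 0.36, 0.84, -1.21 and -0.06 in controls 1 to 8. The other 50 averaged 0.36, 0.53, 0.08, 0.59, 0.17, -0.27, -0.91 and -0.55 in cyfluthrin samples 1 to 8, and 0.09, 0.30, 0.07, -0.02, 0.03, 0.21, -0.47 and -0.22 in controls 1 to 8. Both sets were lowest in sample 7 of either group. The mean deviation of all 7034 probes stayed between -0.12 and 0.16 in exposed samples and between -0.04 and 0.02 in controls.

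**Figure D2:**
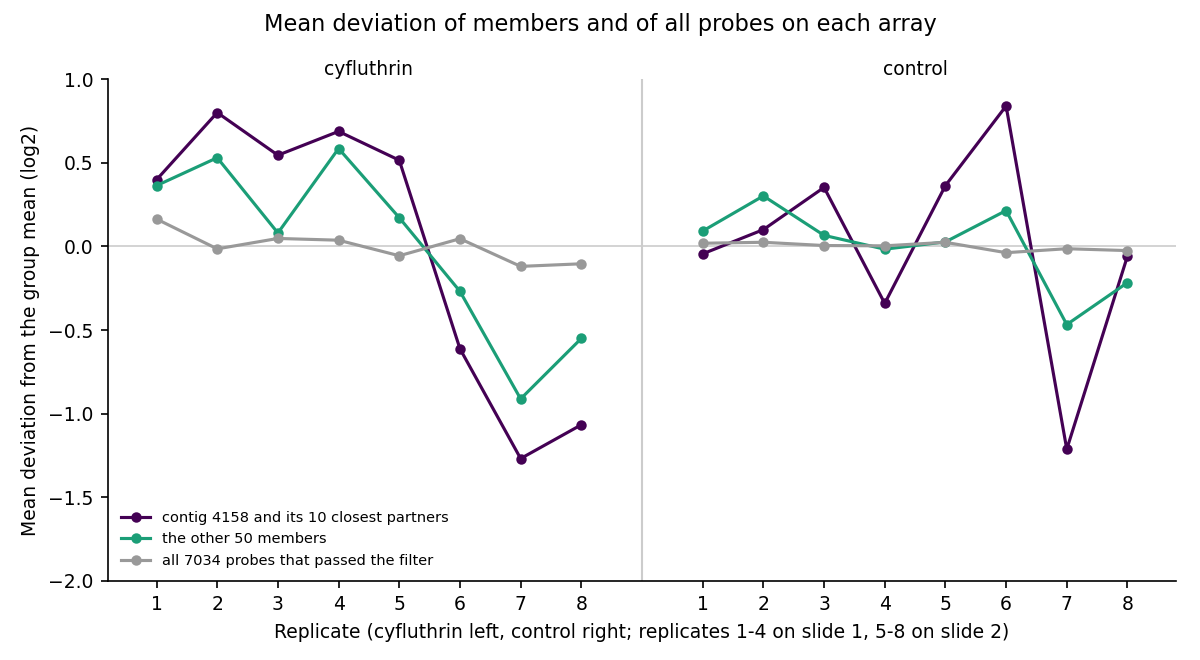
Mean deviation from the group mean, in log2 units, on each array (cyfluthrin samples left, controls right) for contig_4158 with its 10 closest partners, the other 50 members and all 7034 probes that passed the filter. Both sets of members dip in sample 7 of each group (to -1.27 and -0.91 in cyfluthrin 7 and to -1.21 and -0.47 in control 7), while the line of all probes stays near 0.

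Array quality moved with this pattern in part. On cyfluthrin 7, 78.2% of probes were well above background, against 82.7% to 86.2% on the other exposed arrays, and on control 7 it was 76.0%, against 78.3% to 85.3% on the other controls. The arrays where the members were lowest were thus also the ones with the fewest probes above background in their groups. Cyfluthrin 6, where the closest partners were low as well, had the highest share of all, 86.2%. The 75th percentile of log2 intensity was 9.34 on cyfluthrin 7 and 9.11 on control 7, inside the range of the other arrays (8.92 to 9.98 among exposed and 8.72 to 9.41 among control arrays). The part of array quality in the pattern was not tested. When cyfluthrin 7 and 8 and control 7 were left out together, a setting chosen after seeing the data, 14 of the 60 partners were chosen again. Of the 10 closest, 9 were among these 14, and the lowest r of the 10 was 0.50.

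Slides moved with the pattern too. Slide 1 held samples 1 to 4 of both groups and slide 2 samples 5 to 8, and each slide was scanned on its own. Within a slide the groups lay in different rows, in the opposite order on the other slide. Samples of the same number lay in the same column of the same slide, so sample number and slide column cannot be told apart. Cyfluthrin 7 and control 7, where both sets of members were lowest, thus shared column 3 of slide 2. The exposed samples in which contig_4158 was lower, 6 to 8, were all on slide 2, but sample 5 of the same slide stood as high as those of slide 1. With the group mean of each slide subtracted in place of that of each group, all 10 closest partners were again among the 60 chosen, with a lowest r of 0.765, and 29 of the 60 partners were chosen again.

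**Figure D3:**
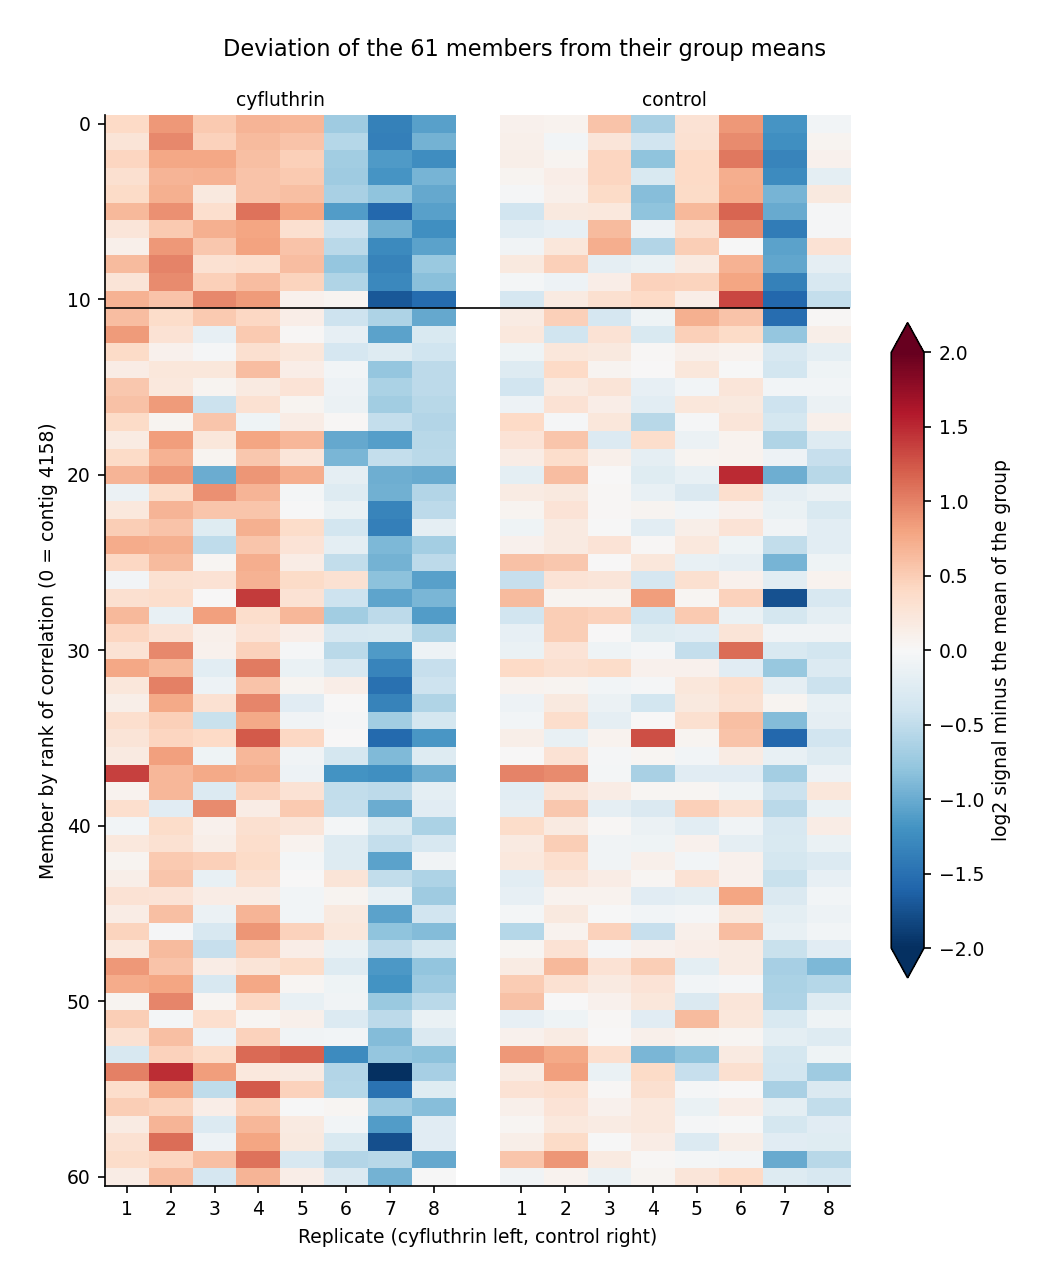
Deviation of each of the 61 members (rows, by rank of r, contig_4158 at the top) from its group mean on each array (columns, cyfluthrin left, control right), in log2 units, red for higher and blue for lower. Above the line at rank 10 the columns of cyfluthrin 6, 7 and 8 and of control 7 are mostly blue. Below the line the pattern is paler, above all among controls, where the median r to contig_4158 was 0.498.

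The rule did not use the difference between exposed and control samples to choose the partners, and the members divided sharply on it. Contig_4158 and its 10 closest partners are 11 probes, of which contig_6676 met the filter for testing only through the exposed arrays, where it was higher, and is set aside in this count. Of the remaining 10 probes, 9 rose in cyfluthrin samples and 0 fell, by limma with Benjamini-Hochberg adjustment over all tested probes. Of all 7245 tested probes, 4.97% passed the same threshold: 1.42% rose and 3.55% fell. That split, 103 against 257 probes, was 155 against 211 with quantile normalization, 158 against 214 in the authors' deposited table and 168 against 138 with the median of each array as the scale. The median log2 change of these 10 probes was 2.31, or 4.97-fold, beside -0.06 over all tested probes. All 8 of the 11 that were well above background on every array rose, as did 1.39% of the tested probes that were so. Of the other 50 members, 48 met the filter in both groups, and of these 3 rose and 0 fell, with a median log2 change of -0.09. Contig_4158 was picked with earlier results of these data known, so that its own rise is not independent of the choice. Nor are the rises of the partners, which were chosen for following it closely. The counts above therefore describe 1 co-varying set, and its members are not separate results. Without cyfluthrin 7 and 8 and control 7, all 11 rose, contig_6676 included. Those are the arrays where the 11 averaged lowest, left out after seeing the data, so this count is no support for a rise. The count over all tested probes in this setting is given with the other settings below.

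In 9 of these 10 probes every exposed sample lay above every control, as it did in 0.304% of all tested probes, or 22 of them. Contig_6676 and a member among the other 50 were also among the 22. Over all tested probes, 17 rose more than 4-fold. Of these, 10 were contig_4158 and its closest partners, contig_6676 included, 1 was among the other 50 members and 3 were probes of the numbers left out. The sizes of the dimmer ones depended on the background correction. With normexp correction of the median signals, chosen after seeing the data, 9 tested probes rose more than 4-fold, and 5 of these were among the 11: contig_4158, contig_4071, contig_2699, contig_7311 and contig_5795.

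**Figure D4:**
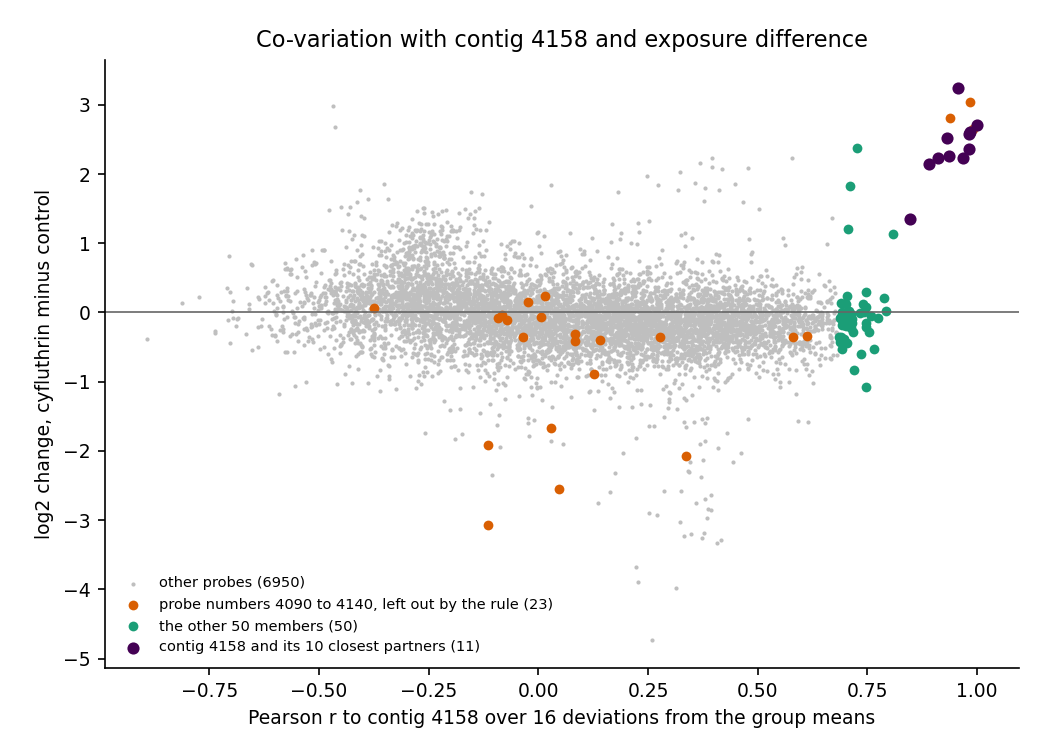
Log2 change, cyfluthrin minus control (vertical axis), against Pearson r to contig_4158 (horizontal axis) for the 7034 probes that passed the filter, with the members and the probes left out by the rule in colour. The probes at the far right, contig_4158 with its 10 closest partners and 3 left-out probes, have log2 changes of 1.35 to 3.25, while most of the other 50 members lie around 0.

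Contig_4071, the closest partner by r (0.983), ran from 1.64 over a median of 3.38 to 3.97 in exposed samples and from -0.81 over 0.49 to 1.36 in controls. It rose 6.07-fold (log2 change 2.60 ± 0.35, SE; limma adjusted p = 0.000722). Contig_2699 ran from 0.62 over a median of 2.32 to 2.65 in exposed samples and from -2.03 over -0.61 to 0.34 in controls, a rise of 5.98-fold (limma adjusted p = 0.00110). No exposed sample of either contig overlapped the controls.

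Contig_6580 ran from -1.67 over a median of -0.07 to 0.20 in exposed samples and from -4.12 over -2.77 to -2.14 in controls, and rose 5.15-fold (limma adjusted p = 0.000865), or 3.15-fold with normexp. Contig_7311 ran from 2.37 over 3.69 to 4.10 in exposed samples and from 0.22 over 1.30 to 1.89 in controls, and rose 4.72-fold (limma adjusted p = 0.000745). In both, too, the groups lay apart. Contig_7311 had the smallest slope on contig_4158 among the closest partners, 0.81.

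Contig_6676 ran from -4.03 over a median of -1.96 to -1.37 in exposed samples and from -6.71 over -5.62 to -4.54 in controls, a rise of 9.51-fold (log2 change 3.25 ± 0.43, SE; 95% interval 2.35 to 4.15; limma adjusted p = 0.000626). It was well above background on all 8 exposed arrays but on only 2 of the 8 control arrays, so that its control level is poorly measured. With normexp correction of the median signals its log2 change was 1.09, or 2.13-fold (limma adjusted p = 0.0122), below that of contig_4158 at 2.64, so the fold above depends on the background correction. Having met the filter for testing only through the exposed arrays, it had to differ, and its p is no support for a rise. Among the other 50 members, contig_6233 met that filter only through the exposed arrays and contig_7210 only through the controls.

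Contig_7422 ran from -1.03 over a median of 0.49 to 1.0 in exposed samples and from -3.45 over -2.12 to -1.11 in controls, and rose 4.79-fold (limma adjusted p = 0.00166). Contig_5795 ran from -0.38 over 1.21 to 1.76 in exposed samples and from -2.70 over -1.51 to -0.89 in controls, and rose 5.72-fold (limma adjusted p = 0.000745). The groups did not overlap, although for contig_7422 the lowest exposed sample, at -1.03, was close to the highest control, at -1.11.

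Contig_4088 ran from -2.84 over a median of -1.18 to -0.51 in exposed samples and from -4.76 over -3.70 to -3.04 in controls, and rose 4.70-fold (limma adjusted p = 0.00110), or 2.41-fold with normexp. Contig_4390 ran from -1.46 over 0.19 to 0.78 in exposed samples and from -3.66 over -2.26 to -1.52 in controls, and rose 4.42-fold (limma adjusted p = 0.00240). Again the groups lay apart. These contigs followed contig_4158 less closely among controls, with an r of 0.796 for contig_4088 and 0.728 for contig_4390, than among exposed samples, where r was 0.967 and 0.990.

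Contig_8441 was the exception among the 11. It ran from -5.02 over a median of -3.0 to -2.37 in exposed samples and from -6.25 over -4.53 to -3.34 in controls, so that the groups overlapped. The log2 change was 1.35 ± 0.44 (SE; 95% interval 0.42 to 2.29) and did not pass the threshold (limma adjusted p = 0.0849), and with normexp it was 0.41. It passed under 6 of 28 other settings. The probe had 1 spot on each array and was well above background on 8 exposed and 5 control arrays.

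**Figure D5:**
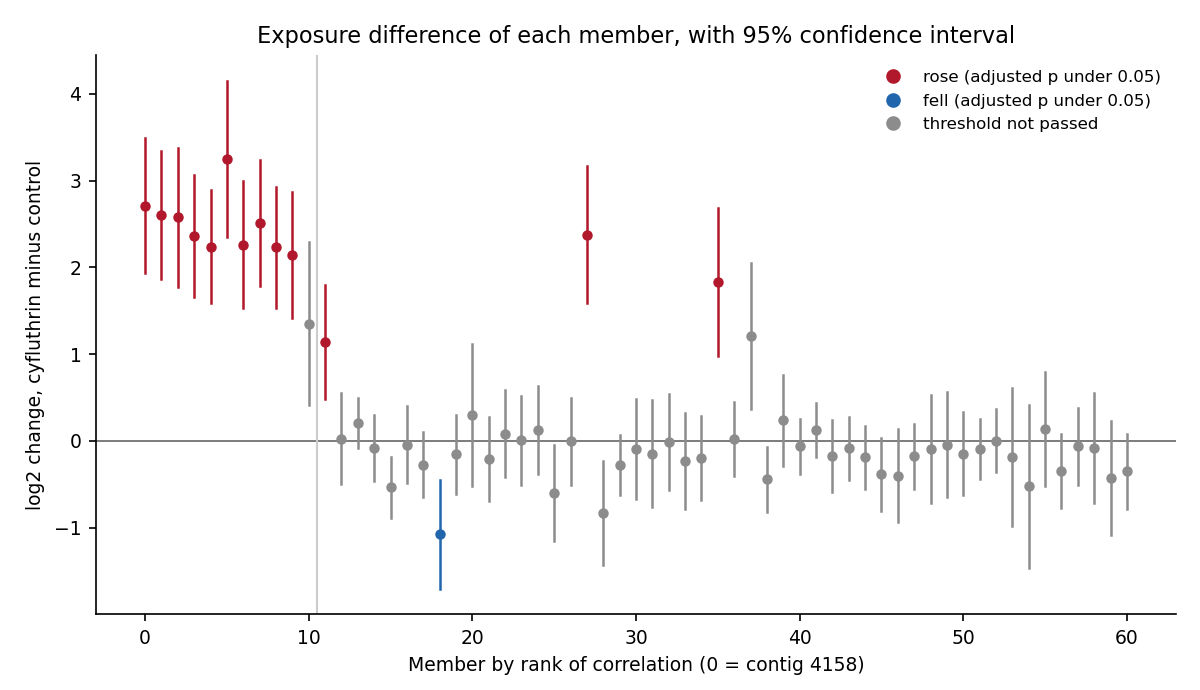
Log2 change, cyfluthrin minus control, of each member with its 95% confidence interval (limma), by rank of r to contig_4158 at rank 0. The 10 probes at the left lay past the threshold on the upper side, contig_6676 included. Beyond rank 10 only 3 members lay past it on the upper side and 1, contig_7210, on the lower, while most intervals include 0. Contig_6676 and contig_7210 met the filter for testing through 1 group only, so their p is no support for a change.

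On each slide taken alone the direction of the 11 probes was the same, and the size was not. Their log2 change was 1.98 to 4.19 on slide 1 (median 2.86) and 0.72 to 2.31 on slide 2 (median 1.87). By limma, all 11 rose on slide 1, where 0.317% of tested probes did. For contig_6676, which met the filter only through the exposed arrays, this is no support for a rise. On slide 2, 0 of the 11 passed the threshold in limma, where 0.179% of tested probes rose. The 11 had adjusted p from 0.0722 to 0.517 there, and 10 of the 11 an unadjusted p under 0.05. So had 1769 of the 7245 tested probes on that slide. For contig_4158 the log2 change was 3.31 on slide 1 and 2.11 on slide 2 (limma adjusted p = 0.00104 and 0.0793). The signed change, cyfluthrin minus control, was higher on slide 1 in all 61 members and in 60.5% of tested probes. In absolute size it was larger on slide 1 in all 11 of these probes but in only 26 of the 61 members. A difference between slides within a group is part of the deviations that chose the members, so this is a description. On a slide alone, exposure and the row of the slide cannot be told apart.

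The members that rose among the other 50 were contig_6287, contig_6094 and contig_7908, singled out after their values were seen. Contig_6094 ran from 4.53 over a median of 5.73 to 6.99 in exposed samples and from 1.46 over 3.25 to 4.03 in controls. It rose without overlap, by 2.38 ± 0.37 on the log2 scale (SE; limma adjusted p = 0.00184). Since 3 of its spots on exposed arrays were saturated, its highest exposed values and this change are lower bounds. Contig_7908 ran from -0.68 over 1.21 to 2.10 in exposed samples and from -2.52 over -0.89 to 0.33 in controls, a rise of 3.56-fold with overlapping groups (limma adjusted p = 0.0203).

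Contig_6287, next after the closest 10 with an r of 0.808, rose 2.21-fold (log2 change 1.14 ± 0.31, SE; limma adjusted p = 0.0449). It was well above background on 8 exposed and 5 control arrays. The only member past the threshold on the lower side was contig_7210 (log2 change -1.08 ± 0.30, SE; limma adjusted p = 0.0449). It was well above background on 3 exposed and 6 control arrays, so its exposed level is poorly measured and no fold is given. It met the filter only through the controls, where it was higher, so that this p is no support for a fall. It passed the threshold in 7 of 28 other settings, and with normexp its log2 change was -0.39.

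The remaining 46 of the other 50 did not pass the threshold. Their example at the bright end is contig_3002, the member with the highest mean signal, which averaged 4.46 ± 0.47 in exposed samples and 4.45 ± 0.15 in controls (SD, n = 8 each). Its difference was 0.00 on the log2 scale, with a 95% interval from -0.36 to 0.37 (limma adjusted p = 0.991). At the dim end, contig_534 averaged -5.37 ± 0.69 in exposed samples and -5.28 ± 0.55 in controls (limma adjusted p = 0.874) and was well above background on 5 arrays of each group. The members just inside the limit, contig_5287, contig_2916 and contig_8278, had log2 changes of -0.09, -0.43 and -0.35 (limma adjusted p = 0.891, 0.420 and 0.311). Probes that followed contig_4158 less closely within groups thus mostly did not share its rise, although intervals of this width leave room for modest changes.

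Members also differed in spread between the groups. Of the 61, 58 had the larger SD among exposed samples, or 95.1%, beside 72.9% of all tested probes. Among contig_4158 and its 10 closest partners, all 11 did, with a median SD of 0.85 in exposed samples and 0.65 in controls. In the other 50 the median SD was 0.60 in exposed samples and 0.28 in controls. These deviations chose the members, so no test is given.

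Outside the members, 3 of the 23 probes of the left-out numbers that passed the filter followed contig_4158 as closely as its closest partners. The probes of contig_4879, contig_5659 and contig_4735 had an r of 0.991, 0.985 and 0.939 and rose 6.27-, 8.22- and 7.04-fold (limma adjusted p = 0.000745, 0.000548 and 0.000528). The other 20 had an r below that of the last partner.

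The rule did not use the place of a spot on the array. The 20 spots of contig_4158 and its closest partners lay in rows 23 to 190 of 192 and columns 4 to 80 of 82. Whether spots lay close together within these ranges was not tested. Of the 11 probes, 9 carried the ending PI425439380, or 81.8%, beside 42.7% of tested probes, and the nearest of their probe numbers were 134 apart. Among all 61 members the share with this ending was 54.1%. Over all members and arrays, 1 of 1680 spots carried an outlier mark and 3 were saturated. The flag for signal above background was part of the filter, and it was set on every array for 68.9% of members and 81.6% of tested probes.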

How the data were processed

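The data are 16 Agilent Feature Extraction outputs, 1 array each. Per the file headers (which name version 10.7.1.1; 9.1 stands in the submitters' processing notes), the deposited processed intensity is background-subtracted and detrended within an array, with no scaling between arrays. The authors' deposited table of log2 values, with normalization unstated, served as an alternative; its array medians lay between -0.094 and 0.14.

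The processed intensities were put on the log2 scale, the spots of each probe were averaged, and the array's 75th percentile (421 to 1011 in intensity) was subtracted. Probes were tested where at least 50% of their spots were well above background on at least 4 of 8 arrays of a group (7245 probes). The group means were set against each other in limma 3.58.1 (R 4.3.3), over all 16 arrays with no block and Benjamini-Hochberg adjustment, at a threshold of 0.05. Between 76.0% and 86.2% of probes were well above background on an array, which with 8 arrays a group sets the precision. The fit and the rule were tested on simulated data. Python 3.11.15 with pandas 2.3.3 and matplotlib 3.10.9 did the rest.

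The members and the tests were chosen with earlier results of these data known. Named were contig_4158, the 10 partners with the highest r, 3 probes on either side of the limit of 60, the 2 rises and 2 falls among members with the smallest p (only 1 fell), and the members with the lowest and highest mean signal.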

Additional observations from a re-analysis of the deposited data

How the results depend on the processing

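Contig_4158 kept its rise past the threshold under all 29 other settings except slide 2 alone (2.11, limma adjusted p = 0.0793), with log2 changes of 2.11 to 3.31. The count of changed members, 14, was 0 on slide 2 alone and 10 to 17 under the other settings. Pairing by number was not settled: deviations of same-numbered, same-column arrays had an r of -0.22 to 0.48, over 0.1 in 4 of 8 pairs. Of 8 exposed arrays, 1 correlated best with the control of its number. With the replicate block, 17 members changed: 15 rose and 2 fell. Of the 15, 11 were contig_4158 and its closest partners, contig_6676 included, whose p is no support for a rise. Contig_4158 kept its call with that block (limma adjusted p = 0.00166). Over all tested probes, 26 to 461 changed and 13 to 168 rose across the 13 settings other than leaving out 1 array. With normexp on median signals, the median fold of contig_4158 and its 10 closest partners was 3.45. Of these 11, 10 kept their rise, contig_6676 included, whose p is no support for a rise here either. The median log2 change of the members stayed between -0.31 and 0.24 over all 29 settings. The count over all tested probes, 360, was 26 on slide 1 alone, 75 on slide 2 alone, 189 without controls 1 and 2 and cyfluthrin 2 and 8, 107 without control 7 and cyfluthrin 7 and 8, and 140 to 672 with 1 array left out (672 without cyfluthrin 2, 183 without cyfluthrin 5, 226 without cyfluthrin 8, and 176, 140, 204 and 225 without controls 2, 6, 7 and 8).

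The rule chose 35 of the 60 partners again with normexp on median signals, 29 with slide means subtracted, 37 by Spearman rho, 14 over controls alone, 25 over cyfluthrin samples alone, 14 without control 7 and cyfluthrin 7 and 8, and 33 to 53 with 1 array left out (38, 39, 36 and 33 without cyfluthrin 3, 5, 6 and 7, and 39 and 37 without controls 6 and 7). All 10 closest partners were among the 60 whichever single array was left out. They were 9 over controls alone, 9 without those 3 arrays and 7 with the strictest filter on dim probes, which removes 3 of them beforehand. The members that passed no threshold changed sign as follows. Contig_3002 was at -0.033 with quantile normalization, -0.029 in the authors' deposited table, -0.22 on slide 2, -0.0064 without controls 1 and 2 and cyfluthrin 2 and 8, and -0.082 to 0.13 with 1 array left out (-0.039, -0.082 and -0.063 without cyfluthrin 1, 2 and 4, -0.024 and -0.032 without controls 7 and 8). Contig_5287 was at 0.28 on slide 1, -0.24 to 0.17 with 1 array left out (0.17 without cyfluthrin 7) and 0.21 without control 7 and cyfluthrin 7 and 8. Contig_534 was at -0.22 to 0.068 with 1 array left out (0.068 and 0.018 without cyfluthrin 7 and 8), 0.078 without controls 1 and 2 and cyfluthrin 2 and 8, and 0.13 without control 7 and cyfluthrin 7 and 8. The cause was not tested. Normexp on median signals, leaving out outlier spots and both sets of arrays left out together were chosen after seeing the data. Normexp on mean spot signals, which the files used here do not give, was not run.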
